A study of Mus musculus with 5 samples.

Results

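The genes described here are 32 interferon-stimulated genes of mouse liver, chosen by symbol as type I and type II interferon response genes, out of 33589 rows in the deposited expression table. All 32 had a row of their own, and all 32 had a mean of at least 1 FPKM (fragments per kilobase of transcript, scaled to the size of the library), the level above which genes were tested. The livers came from male mice of 6 weeks that received a high-fat diet for 4 weeks. In 3 of them, labelled Lyve1-Cre;Hegfl/fl and called knockouts, a floxed Heg1 gene was combined with Cre recombinase driven by Lyve1, a gene of lymphatic and liver sinusoidal endothelial cells. In the other 2, labelled Hegfl/fl and called controls, Heg1 was floxed and no Cre was named. Every liver thus carried the floxed gene and had the same diet. Neither the strain nor a separate animal for each library is stated, so every error and p-value covers library-to-library spread, which may be technical.

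Type I interferons are secreted when cells sense foreign or misplaced nucleic acid. Type I interferons act through the receptor chains IFNAR1 and IFNAR2 and the kinases JAK1 and TYK2 on a transcription factor complex that holds STAT2 and IRF9 and binds the interferon-stimulated response element (ISRE). Interferon gamma, the type II interferon, acts through IFNGR1 and IFNGR2, and its target genes are known for the gamma-activated site (GAS). In liver, hepatocytes, Kupffer cells (the resident macrophages) and sinusoidal endothelial cells can all respond. The design asks which liver transcripts differ between mice with and without Cre in Lyve1-positive cells, all of them fed the same fat-rich diet.

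The promoter letters through which these genes are known to be read are shown first, because the members were chosen for their response to interferon and not for their sequence. Of the 32 genes, 26 had an entry in the RefSeq promoter table (GRCm38.p6, 300 bases around the start), with Rigi listed there under its older symbol Ddx58. Cmpk2, Irf7, Oasl1 and Psmb9 were among those with neither motif, while Dhx58, Ifi27l2a, Mx1, Parp14, Rtp4 and Usp18 are named only. The ISRE was searched as GAAANNGAAA on both strands, overlaps counted, and was found in 14 of the 26 members (53.8%) and in 3.99% of the 27025 genes of the table. GAS was searched as TTCNNNGAA, which reads the same on both strands, and was found in 7 of the 26 members (26.9%) and in 9.55% of all genes. The stretches below run 5′ to 3′ on the gene's strand, with the ISRE matches in capitals (for Irf1, the GAS match). The first 6 belong to genes whose knockout and control FPKM overlapped, and the last 3 to genes whose knockouts all lay above both controls.
Isg15 (chr4:156200860-156200911, minus strand): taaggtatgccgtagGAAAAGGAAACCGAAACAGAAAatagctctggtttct
Ifit1 (chr19:34640770-34640828, plus strand): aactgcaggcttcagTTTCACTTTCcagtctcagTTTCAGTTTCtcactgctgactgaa
Oas1a (chr5:120907515-120907560, minus strand): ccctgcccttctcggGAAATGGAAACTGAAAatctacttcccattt
Bst2 (chr8:71537572-71537617, minus strand): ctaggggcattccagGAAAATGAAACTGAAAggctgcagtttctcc
Gbp3 (chr3:142559984-142560029, plus strand): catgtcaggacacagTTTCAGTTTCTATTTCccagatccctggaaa
Irgm1 (chr11:48871420-48871465, minus strand): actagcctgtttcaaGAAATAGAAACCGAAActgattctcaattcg
Ifit3 (chr19:34583358-34583431, plus strand): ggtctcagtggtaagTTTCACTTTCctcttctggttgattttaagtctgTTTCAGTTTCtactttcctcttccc
Stat2 (chr10:128270261-128270300, plus strand): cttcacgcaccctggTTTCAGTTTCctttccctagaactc
Irf1 (chr11:53769909-53769947, plus strand): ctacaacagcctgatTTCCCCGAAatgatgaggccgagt

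Isg15 held 3 overlapping ISRE matches, Ifit1 and Ifit3 2 separate ones, and Oas1a, Bst2, Gbp3 and Irgm1 2 overlapping ones. Stat2 held 1 ISRE match (as in Ifit1, Ifit3 and Gbp3, read from the other strand), and the Irf1 stretch is a GAS match. The Bst2 stretch also holds a GAS match (TTCCAGGAA), not marked by capitals, that runs into its ISRE letters. Members with and without the ISRE letters had like fold changes, with a median of 0.23 for the 14 with a match and 0.25 for the 12 without. Every knockout lay above both controls for 3 of the 14 and for 5 of the 12, where 18.9% of all genes tested were so placed.

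The libraries had FPKM sums between 797692 and 820498, and between 10614 and 10945 genes of at least 1 FPKM. Sequencing depth is unknown. The hepatocyte marker Alb was abundant in every liver, between 37676 and 51017 FPKM. The targeted gene Heg1 had 0.45, 0.43 and 0.50 FPKM in knockouts and 0.48 and 0.35 FPKM in controls, groups that overlapped. The deleted stretch of Heg1 is not given, so these whole-gene values do not check the labels. Control 1 stood apart for the genes described here and knockout 1 for erythrocyte genes, whose 5 markers summed to 1329, 244 and 141 FPKM in knockouts and to 136 and 146 FPKM in controls.

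Across the 32 genes, knockout livers had slightly higher levels, and control 1 had the lowest. With limma on log2(FPKM + 1) and Benjamini-Hochberg adjustment over the 10820 genes tested, 0 of the 32 rose and 0 fell, where 0% of all genes were called. At an unadjusted p below 0.05, 5 of the 32 were higher, where 5.29% of all genes were, and 0 were lower, where 1.71% were. That count depended on the scaling. In either direction it was 2 of 32 with median-of-ratios scaling, where it was 674 of 10814 genes in all. With quantile normalization it was 1 of 32, where it was 600 of 10820 genes in all. Members with a positive fold change numbered 28 of 32, against 64.2% of all genes tested, with 26 against 50.7% under median-of-ratios scaling and 24 against 49.4% under quantile normalization. Their median log2 fold change (of FPKM + 1, knockout minus control) was 0.24, and that of all genes was 0.061.

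The difference rested on control 1. In that liver 24 of the 32 members had their lowest value or shared it, where the same held for 28.4% of all genes. Control 2 lay below every knockout for 11 members, inside the knockout range for 17 and above it for 4. Without control 1 the median log2 fold change was 0.031, below the 0.044 of all genes, and 20 members were higher. The count of members with every knockout above control 2 was then 11 of 32, where 32.6% of all genes were. Without control 2 the median was 0.40 and 24 of 31 members had every knockout above control 1, where 37.5% of all genes did.

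**Figure D1:**
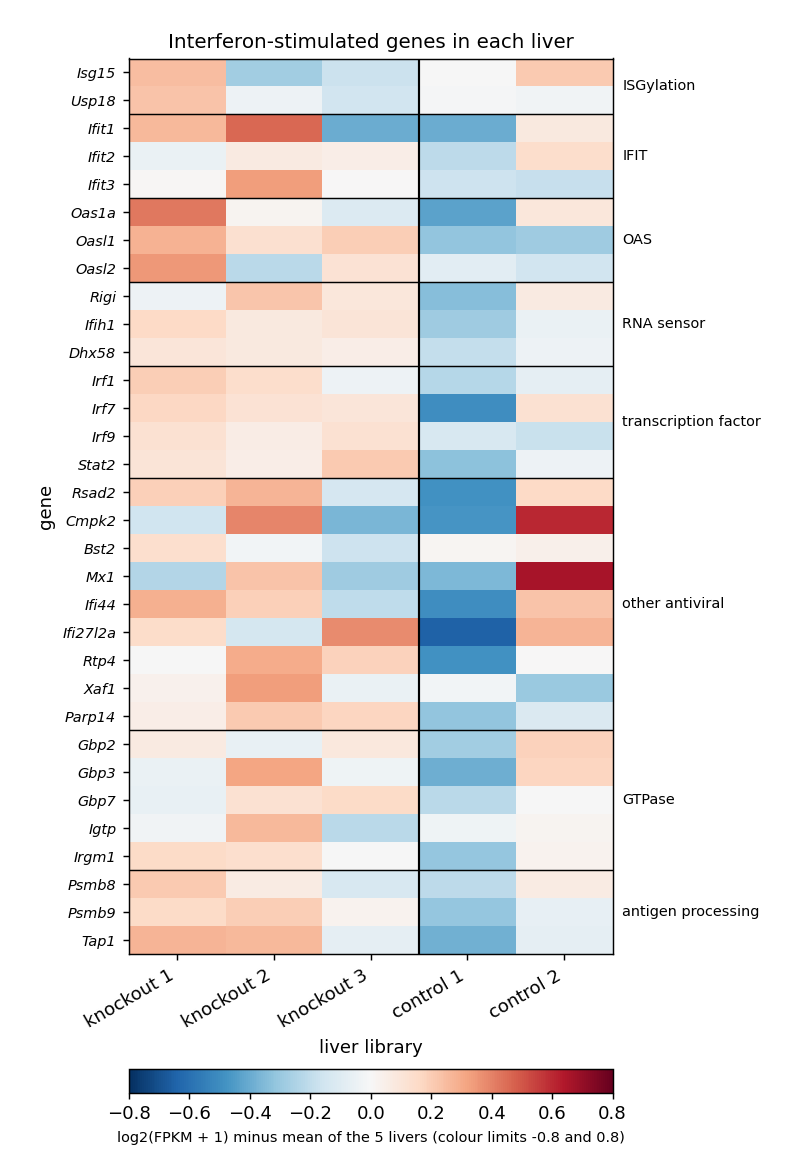
Colour gives log2(FPKM + 1) of each gene minus its mean over the 5 livers, with knockouts left of controls and genes grouped by role. The control 1 column is the bluest in most rows (24 of 32 genes had their lowest value there), while control 2 resembles the knockouts in many rows.

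Transcription factors of the pathway were higher in knockouts in 4 of 4 members under each scaling, and for 3 of the 4 every knockout lay above both controls, where 18.9% of all genes tested were so placed. With median-of-ratios scaling this held for 2 of the 4, against 11.9% of all genes, and with quantile normalization for 2 of the 4, against 10.9%. Stat2, a subunit of the type I complex, had 21.3, 20.5 and 22.9 FPKM in knockouts and 15.5 and 19.1 FPKM in controls. Every knockout was above both controls, by 1.37 FPKM or more. The log2 fold change was 0.31 (SE 0.12, limma adjusted p = 0.700). Irf9, the DNA-binding subunit of that complex, had 15.5, 14.8 and 15.5 FPKM in knockouts and 12.9 and 12.4 FPKM in controls. Its controls lay close together, so that the fold change of 0.25 (SE 0.097, limma adjusted p = 0.700) was 0.28 without control 1.

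Irf1, a factor induced most directly by interferon gamma through a GAS (shown above), had 18.0, 17.3 and 15.1 FPKM in knockouts and 13.2 and 14.8 FPKM in controls, with knockout 3 only 0.36 FPKM above control 2. The fold change was 0.25 (SE 0.12, limma adjusted p = 0.718). Irf7, which amplifies type I interferon production, was flat in 4 livers and low in 1. It had 29.4, 28.4 and 28.0 FPKM in knockouts and 18.2 and 28.4 FPKM in controls. Its fold change of 0.32 (SE 0.18, limma adjusted p = 0.739) became 0.0067 without control 1.

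Among the 2′-5′-oligoadenylate synthetase genes, Oasl1 had the smallest p of all 32 members. OASL1 lacks synthetase activity and in mouse represses translation of Irf7 mRNA. Oasl1 (chr5:114923240-114937915, plus strand, mm10) had 10.7, 9.54 and 10.1 FPKM in knockouts and 6.76 and 6.95 FPKM in controls. The groups were separated by 2.59 FPKM, more than the range within either. On the log2 scale this came to 0.50 (limma SE 0.11, interval at 95% from 0.24 to 0.76). The limma p was 0.0029 before adjustment and 0.675 after it. The log2 fold change stayed between 0.46 and 0.54 when any 1 library was left out.

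Oasl2, whose start lies 26304 bases from that of Oasl1 on the same strand, had 4.87, 2.98 and 4.00 FPKM in knockouts and 3.36 and 3.15 FPKM in controls. Knockout 2 was below both controls, and the fold change was 0.20 (95% interval -0.24 to 0.64). Oas1a, which makes the 2-5A that activates RNase L, had 5.74, 4.10 and 3.66 FPKM in knockouts and 2.74 and 4.34 FPKM in controls. Its fold change of 0.28 was 0.024 without control 1. Oas1a has close relatives (Oas1b, Oas1g) with which reads can be shared, so that its own level is uncertain.

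The cytosolic RNA sensors were higher in knockouts in 3 of 3 members under each scaling, with small changes. Ifih1, which encodes MDA5, had 9.41, 8.84 and 9.03 FPKM in knockouts and 6.68 and 7.99 FPKM in controls. Dhx58, which encodes LGP2, a helicase without signalling domains that tunes the other sensors, had 6.65, 6.56 and 6.42 FPKM in knockouts and 5.27 and 5.97 FPKM in controls. For both genes each knockout was above both controls, where 18.9% of all genes tested were so placed. The knockouts of both genes differed by less among themselves than the controls did. With median-of-ratios scaling 2 of the 3 sensors were so separated, against 11.9% of all genes. With quantile normalization 1 was, against 10.9%. The fold changes were 0.28 for Ifih1 (SE 0.12, limma adjusted p = 0.702) and 0.19 for Dhx58 (SE 0.11, limma adjusted p = 0.739). Rigi had 9.58, 11.7 and 10.6 FPKM in knockouts and 7.59 and 10.4 FPKM in controls. Its groups overlapped, and the fold change of 0.23 was 0.021 without control 1.

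**Figure D2:**
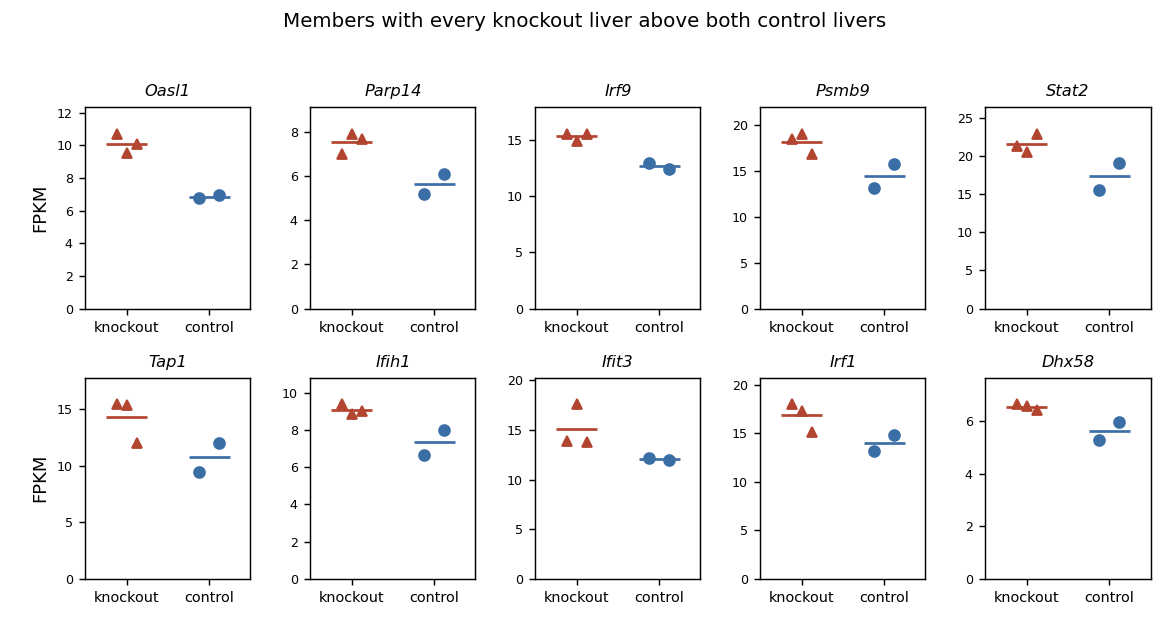
FPKM in each liver, on linear axes from 0, for the 10 members whose knockouts (triangles) all lay above both controls (circles), with bars at group means and panels in order of unadjusted p. The lowest knockout lay 2.59 FPKM above the highest control for Oasl1, 1.93 FPKM for Irf9 and 0.02 FPKM for Tap1.

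For 10 of the 32 members every knockout lay above both controls, where 18.9% of all genes tested did, and for 0 every knockout lay below, where 6.38% did. The 10 were Dhx58, Ifih1, Ifit3, Irf1, Irf9, Oasl1, Parp14, Psmb9, Stat2 and Tap1. The count above was 8 with median-of-ratios scaling, where 11.9% of all genes were so placed, and 7 with quantile normalization, where 10.9% were.

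Neither member of the ISG15 system passed the test. ISG15 is a ubiquitin-like protein that is attached to other proteins, and USP18 removes it and also blocks the type I receptor. Isg15 had 21.8, 14.8 and 16.1 FPKM in knockouts and 18.1 and 21.2 FPKM in controls, so that 2 of 3 knockouts were below both controls. The fold change was -0.17 (95% interval -0.60 to 0.26). Usp18 had 7.95, 6.42 and 5.89 FPKM in knockouts and 6.60 and 6.51 FPKM in controls, a fold change of 0.029 that turned to -0.031 with median-of-ratios scaling and -0.049 with quantile normalization. Both genes were highest in knockout 1. The other enzymes of the pathway come from a wider list of interferon-induced genes. Uba7, the activating enzyme, had 6.75, 9.43 and 10.2 FPKM in knockouts and 6.54 and 7.76 FPKM in controls. Ube2l6, the conjugating enzyme, had 46.8, 43.4 and 38.2 FPKM in knockouts and 35.6 and 44.4 FPKM in controls. Groups overlapped for both, and the fold changes were 0.25 for Uba7 and 0.099 for Ube2l6.

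The 3 IFIT genes, whose proteins bind foreign RNA and form a complex, lie in a cluster on chromosome 19. Ifit3 had 13.9, 17.6 and 13.8 FPKM in knockouts and 12.2 and 12.0 FPKM in controls, with a fold change of 0.29 (SE 0.14, limma adjusted p = 0.718) that was 0.30 without control 1. Ifit3b, a near-identical copy, had 2.97, 2.75 and 2.06 FPKM in knockouts and 2 and 1.73 FPKM in controls, and the 2 can share reads. Ifit1 varied within the knockouts as much as between groups, with 5.27, 6.21 and 2.98 FPKM in knockouts and 2.98 and 4.55 FPKM in controls. Ifit2 was low throughout, with 1.21, 1.41 and 1.38 FPKM in knockouts and 0.98 and 1.53 FPKM in controls. Its fold change of 0.059 turned to -0.017 with quantile normalization.

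Among the other antiviral genes, Parp14 and Rtp4 had the largest positive fold changes. Parp14, an ADP-ribosyltransferase, had 7.01, 7.93 and 7.68 FPKM in knockouts and 5.19 and 6.12 FPKM in controls. Each knockout exceeded both controls, and the fold change was 0.36 (SE 0.12, limma adjusted p = 0.700). Rtp4, a receptor transporter protein, had 18.3, 22.8 and 21.0 FPKM in knockouts and 12.8 and 18.4 FPKM in controls. Its fold change of 0.40 (SE 0.17, limma adjusted p = 0.708) was 0.16 without control 1. Xaf1, which encodes a partner of the apoptosis inhibitor XIAP, had 8.90, 11.2 and 8.33 FPKM in knockouts and 8.50 and 6.87 FPKM in controls, and it was 1 of 5 members with control 2 below control 1.

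Mx1 and Cmpk2 had negative fold changes, and control 2 was the highest of the 5 livers for both. MX1 is a dynamin-like GTPase that blocks influenza viruses and is defective in many laboratory strains. Mx1 had 0.65, 1.27 and 0.59 FPKM in knockouts and 0.51 and 2.06 FPKM in controls. Cmpk2, a mitochondrial nucleotide kinase, had 1.35, 2.44 and 1.03 FPKM in knockouts and 0.89 and 2.98 FPKM in controls. For both genes the controls stood at opposite ends, and the 2 values differed 4.04-fold for Mx1 and 3.35-fold for Cmpk2. The fold change was -0.25 for Mx1 (SE 0.33, limma adjusted p = 0.870) and -0.11 for Cmpk2 (SE 0.36, limma adjusted p = 0.952).

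Rsad2, which encodes viperin, starts 12752 bases from Cmpk2 on the opposite strand. It had 2.08, 2.26 and 1.46 FPKM in knockouts and 0.93 and 2.01 FPKM in controls, so that control 2 was inside the knockout range. Ifi44 had 2.56, 2.33 and 1.54 FPKM in knockouts and 1.07 and 2.42 FPKM in controls. Ifi27l2a, a small interferon alpha-inducible protein, had 23.8, 19.3 and 28.0 FPKM in knockouts and 13.3 and 26.0 FPKM in controls. For these 3 genes control 1 was the lowest liver and the fold change was negative without it, at -0.048, -0.14 and -0.14. Bst2, which encodes tetherin, was the most abundant member, with 194, 175 and 158 FPKM in knockouts and 179 and 182 FPKM in controls. Its fold change was -0.046 (95% interval -0.32 to 0.22).

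The interferon-induced GTPases act on intracellular microbes and the vacuoles that hold them. None of the 5 had groups that did not overlap, where 25.3% of all genes tested had such groups. Irgm1 had 30.3, 29.8 and 27.0 FPKM in knockouts and 21.7 and 27.6 FPKM in controls. Igtp, which encodes Irgm3, had 16.4, 20.2 and 14.3 FPKM in knockouts and 16.3 and 17.0 FPKM in controls, and its fold change of 0.012 turned to -0.052 with median-of-ratios scaling and -0.048 with quantile normalization. The guanylate-binding protein genes form a cluster on chromosome 3. Gbp3 had 3.65, 5.01 and 3.72 FPKM in knockouts and 2.68 and 4.44 FPKM in controls, and Gbp2 and Gbp7 likewise had control 1 as the lowest liver. Without control 1 the fold changes were -0.15 for Gbp2, -0.096 for Gbp3 and 0.076 for Gbp7. That of Gbp2 on all livers was 0.078 and turned to -0.0078 with quantile normalization.

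The antigen processing genes are neighbours on chromosome 17. Psmb8 and Psmb9 encode catalytic subunits of the immunoproteasome, which replaces subunits of the constitutive proteasome, and Tap1 encodes a subunit of the transporter that carries peptides to MHC class I molecules. Psmb9 had 18.5, 19.1 and 16.8 FPKM in knockouts and 13.1 and 15.7 FPKM in controls. Tap1 had 15.5, 15.4 and 12.0 FPKM in knockouts and 9.50 and 12.0 FPKM in controls. Knockouts lay above both controls for each gene, but by only 0.02 FPKM for Tap1. The fold changes were 0.31 for Psmb9 (SE 0.12, limma adjusted p = 0.700) and 0.38 for Tap1 (SE 0.16, limma adjusted p = 0.700). These 2 genes are read in opposite directions, and in GENCODE M21 their outermost ends overlap, with starts 211 bases apart. Under such gene models reads in the overlap cannot be assigned without strand. Psmb8 had 50.2, 45.4 and 39.6 FPKM in knockouts and 37.3 and 45.4 FPKM in controls, and its fold change of 0.12 was -0.017 without control 1.

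**Figure D3:**
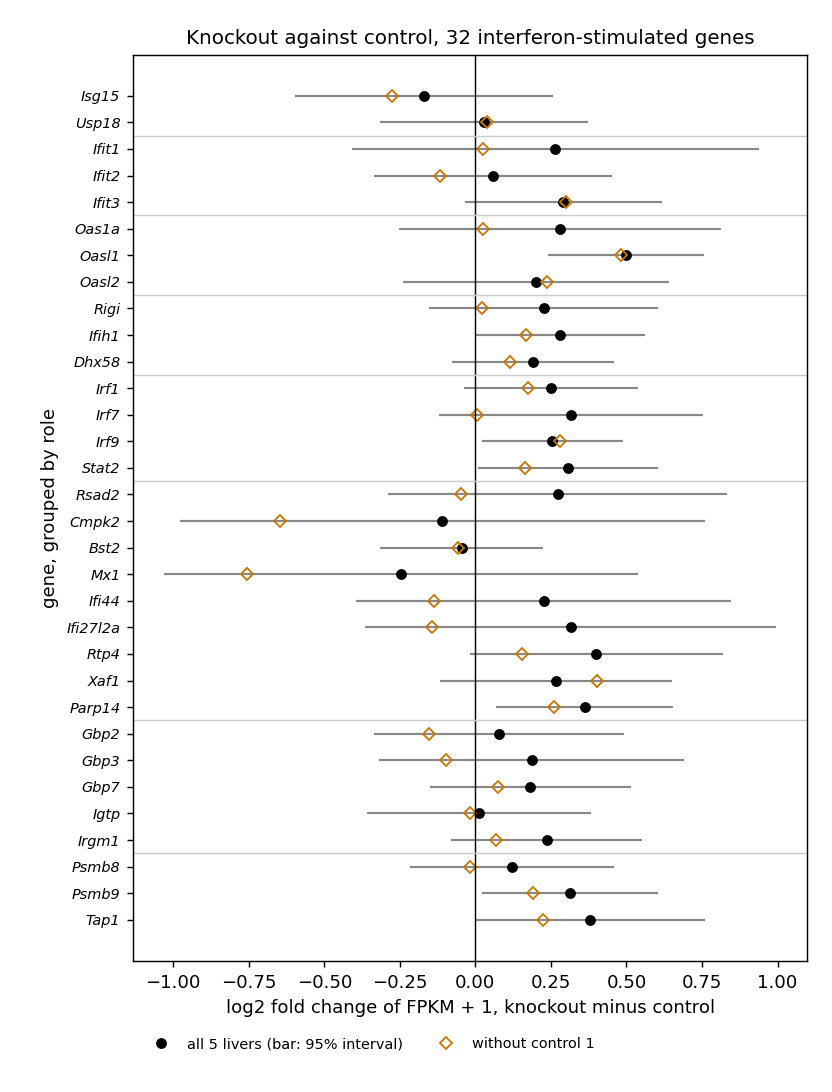
Log2 fold change of FPKM + 1, knockout minus control, for the 32 genes in order of role, with limma's 95% interval on all 5 livers (black) and the value without control 1 (open diamonds). Oasl1, Irf9 and Ifit3 keep their place without control 1, while Irf7, Rigi and Ifit1 move close to 0.

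The signalling steps upstream were taken from lists of pathway genes. Of 21 interferon genes, 20 were listed at 0 in all 5 livers, among them Ifnb1 and all listed Ifna genes, and Ifng had at most 0.17 FPKM. Of 5 tested receptor genes 0 passed, and 4 were higher under each scaling. Of all genes 64.2% were higher, with 50.7% under median-of-ratios scaling and 49.4% under quantile normalization. Ifngr2, the signalling chain for interferon gamma, had 6.11, 5.30 and 6.35 FPKM in knockouts and 4.65 and 4.03 FPKM in controls. Ifngr1 had 9.14, 11.02 and 10.03 FPKM in knockouts and 8.45 and 9.84 FPKM in controls. Ifnar2, the most abundant chain, had 55.6, 59.0 and 58.2 FPKM in knockouts and 61.5 and 49.0 FPKM in controls, and Ifnar1 had 7.99, 10.4 and 10.3 FPKM in knockouts and 8.64 and 8.59 FPKM in controls. Every knockout lay above both controls for Ifngr2, where 18.9% of all genes tested were so placed. Groups overlapped for Ifngr1, Ifnar2, Ifnar1 and also Il10rb in the deposited FPKM. With quantile normalization 1 receptor gene had every knockout above and 1 every knockout below, where 22.4% of all genes had groups that did not overlap. Il10rb serves lambda interferons, whose receptor gene Ifnlr1 had at most 0.04 FPKM.

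Among 9 tested JAK-STAT genes, 0 passed, and 5 had every knockout above both controls, where 18.9% of all genes did. With quantile normalization 2 were so placed, where 10.9% of all genes were. Jak1, the kinase shared by type I and type II receptors, had 27.4, 26.4 and 28.6 FPKM in knockouts and 23.3 and 20.9 FPKM in controls, with a fold change of 0.30 (limma adjusted p = 0.700). Socs3, an inhibitor of cytokine signalling induced mainly through STAT3, had 4.68, 3.37 and 6.31 FPKM in knockouts and 2.76 and 2.16 FPKM in controls, a fold change of 0.72 (limma adjusted p = 0.700). Both genes were higher in 3 of 3 knockouts. Stat3 had 29.0, 37.6 and 29.5 FPKM in knockouts and 22.1 and 27.7 FPKM in controls. Tyk2 and Pias1 also had groups that did not overlap, while Jak2, Ptpn2 and Ptpn6 did overlap. Socs1, the inhibitor induced by interferon gamma itself, was below the level tested, with 0.17, 0.15 and 0.34 FPKM in knockouts and 0.09 and 0.12 FPKM in controls.

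Of 11 tested genes of nucleic acid sensing, 0 passed and 4 had every knockout above both controls, where 18.9% of all genes did. Trim25, a ubiquitin ligase that activates RIG-I, had 21.0, 22.6 and 16.2 FPKM in knockouts and 13.3 and 14.8 FPKM in controls. Zbp1, a sensor of Z-form nucleic acid, had 7.80, 7.07 and 7.08 FPKM in knockouts and 5.82 and 5.97 FPKM in controls. The others were Tbk1 and Mavs, with fold changes of 0.31 and 0.14. The limma adjusted p of these 4 genes lay between 0.700 and 0.775. With median-of-ratios scaling 3 genes of this list were so placed, where 11.9% of all genes were, and with quantile normalization 3, where 10.9% were.

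A further 46 interferon-induced genes that are not among the 32 were tested, and 0 passed. Of these 40 were higher, where 64.2% of all genes were. With either other scaling 34 were higher, where 50.7% of all genes were with median-of-ratios scaling and 49.4% with quantile normalization. For 13 every knockout lay above both controls, where 18.9% of all genes did, and for 1, Ifitm2, every knockout lay below, where 6.38% did. Their median log2 fold change was 0.18, and 0.011 without control 1, where 30 of the 46 had their lowest value. Iigp1, an abundant immunity-related GTPase, had 116.8, 127 and 126 FPKM in knockouts and 94.97 and 92.9 FPKM in controls, which lay close together, and a fold change of 0.39 (limma adjusted p = 0.675). Dtx3l and Phf11d had fold changes of 0.36 and 0.60 (limma adjusted p = 0.700 for both), and Adar, the RNA-editing enzyme, 0.28 (limma adjusted p = 0.708). For Iigp1, Dtx3l, Phf11d and Adar the 3 knockouts all exceeded both controls.

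Of 15 tested genes of MHC class I presentation beyond the members 0 passed, 7 were higher, where 64.2% of all genes were, and 8 were lower, with a median of -0.0053 (0.0012 with quantile normalization and -0.070 with median-of-ratios scaling). B2m, the invariant light chain, had 2202, 2320 and 2055 FPKM in knockouts and 2003 and 2415 FPKM in controls. Tapbp, which encodes tapasin, was the gene of the list with separated groups in the deposited FPKM, with 37.1, 48.2 and 37.3 FPKM in knockouts and 31.9 and 32.6 FPKM in controls. Constitutive proteasome genes were lower in 12 of 14 (13 with either other scaling), with a median of -0.052 and 0 passing. Of all genes 64.2% were higher, with 50.7% under median-of-ratios scaling and 49.4% under quantile normalization. For 2 of the 14 every knockout lay below both controls, where 6.38% of all genes did. The count below was 6 with median-of-ratios scaling, where 24.1% of all genes had groups that did not overlap in either direction. It was 4 with quantile normalization, where 22.4% had. Psmb5, the subunit that Psmb8 replaces, had 96.7, 84.1 and 93.2 FPKM in knockouts and 106 and 110 FPKM in controls.

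**Figure D4:**
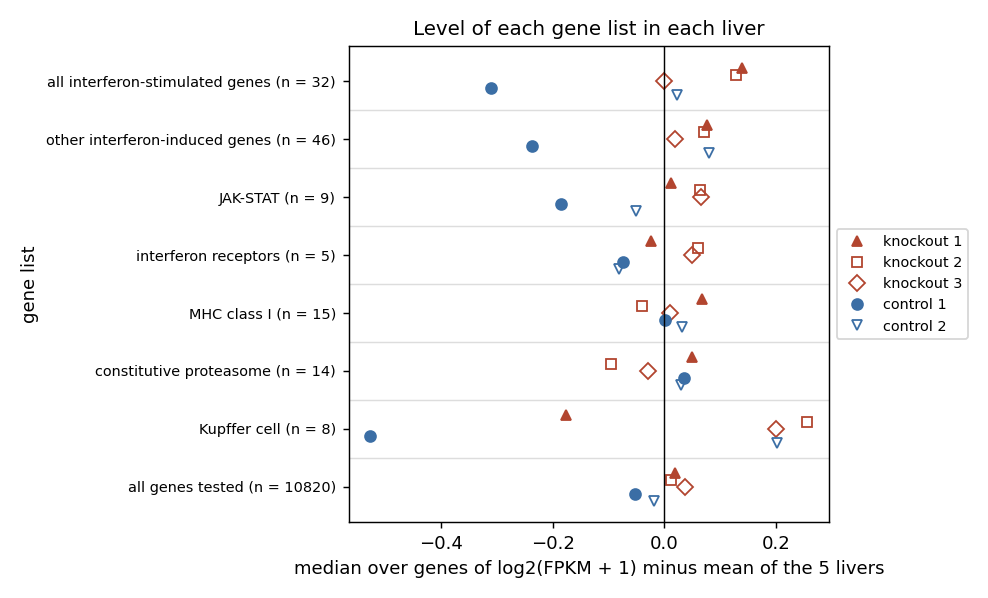
Median over the genes of each list of log2(FPKM + 1) minus the mean of the 5 livers, for knockouts (red) and controls (blue), with n the genes tested. Control 1 is at -0.31 for the 32 interferon-stimulated genes and at -0.53 for Kupffer cell markers, and control 2 is at 0.023 and 0.20.

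Kupffer cell markers were lowest in the same library, and their part in the result was not tested. Fewer cells of a type and less RNA per cell cannot be told apart in such bulk values. All 8 Kupffer cell markers were above 0 in every liver and 6 of 8 were lowest in control 1. Their FPKM summed to 304, 368 and 357 in knockouts and to 214 and 357 in controls. All 8 had positive fold changes, where 64.2% of all genes did (7 with either other scaling), and 0 passed. Groups did not overlap for 0 of the 8, where 25.3% of all genes tested had such groups. With quantile normalization 1 had every knockout above both controls, where 10.9% of all genes did. The median fold change was 0.28 on all livers and -0.093 without control 1. C1qa, a complement component of macrophages, had 66.6, 75.5 and 65.3 FPKM in knockouts and 42.7 and 65.3 FPKM in controls. Clec4f, which is specific to Kupffer cells, had 87.5, 93.7 and 72.2 FPKM in knockouts and 59.1 and 90.6 FPKM in controls. Of 3 tested markers of monocytes or other macrophages, 1 was lowest in control 1 and 2 in knockout 3, with a median fold change of 0.031. Both tested neutrophil markers were lowest in control 1, where 28.4% of all genes were.

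In knockout 1 the median deviation from the mean of the 5 livers was 0.14 for the 32 members and -0.18 for Kupffer markers. That library was the highest of the 5 for 14 of the 32 members, where 23.2% of all genes were highest there. What this says about cell types was not tested. Lymphocyte markers were near the floor. The 9 T cell and NK cell markers, none of which reached the level tested, summed to 5.39, 3.40 and 2.72 FPKM in knockouts and to 2.11 and 2.71 FPKM in controls. The 4 B cell markers, also below the level tested, summed to 2.07, 1.66 and 1.23 FPKM in knockouts and to 0.58 and 0.71 FPKM in controls. Neither of these sums overlapped between groups, though for T and NK cells knockout 3 and control 2 were nearly equal. No share over sums of other low genes was computed. Of the 4 neutrophil markers Ly6g was listed at 0 in 4 of 5 livers, and the sums were 5.75, 8.44 and 4.11 FPKM in knockouts and 3.55 and 5.31 FPKM in controls. The plasmacytoid dendritic cell marker Siglech had at most 0.50 FPKM, and that list also holds Bst2. The 7 markers of sinusoidal endothelium, in which Lyve1-Cre acts, summed to 170, 123 and 130 FPKM in knockouts and to 156 and 132 FPKM in controls, groups that overlapped.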

How the data were processed

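Liver RNA of 5 libraries (3 knockout, 2 control, grouped by the labels) was analysed from the FPKM that the authors deposited per gene symbol. The submitters' processing notes name HISAT2, StringTie, DESeq2 and mm10, without versions or roles. Whether counting used strand is not stated. Depth is unknown, so no counting interval is given, and FPKM divide out a fixed total. With limma 3.58.1 (R 4.3.3), a linear model with trended empirical Bayes variances was fitted to log2(FPKM + 1) of the 10820 rows with a mean of at least 1 FPKM, genotype being the only term. Tests were two-sided, p-values were adjusted by Benjamini-Hochberg over all rows, and the threshold was 0.05. Fold changes on this scale understate the change of low genes. The fit was tested on simulated data with planted changes larger than those of the members, which does not show how well changes of the members' size are found. Genes below that level were fitted with a minimum of 0.1 FPKM. All 32 members are named, with the receptor and JAK-STAT genes (1 of the JAK-STAT list is not reported here) and up to 4 genes of smallest p of each other list. Other genes named were chosen after their values were seen. Members and lists were chosen with earlier results of these data known. Positions came from GENCODE M21 on GRCm38 (mm10). Alternatives were pseudocounts, level minima, scalings, robust variance, library weights, a block by label number, and leaving out each library.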

Additional observations from a re-analysis of the deposited data

How the results depend on the processing

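Over 15 alternatives no interferon-stimulated gene passed, with limma adjusted p between 0.446 and 0.998. In 22 of 467 comparisons with the reported values a member changed sign, and this concerned 11 genes. With quantile normalization Gbp2 was at -0.0078, Usp18 at -0.049, Ifit2 at -0.017 and Igtp at -0.048, and with median-of-ratios scaling Usp18 was at -0.031 and Igtp at -0.052. With library weights Igtp was at -0.0017. Leaving out 1 library gave ranges of -0.048 to 0.59 for Rsad2, -0.017 to 0.26 for Psmb8, -0.14 to 0.59 for Ifi44, -0.096 to 0.47 for Gbp3, -0.15 to 0.31 for Gbp2, -0.12 to 0.24 for Ifit2, -0.11 to 0.12 for Igtp, -0.14 to 0.77 for Ifi27l2a, -0.65 to 0.43 for Cmpk2, -0.079 to 0.11 for Usp18 and -0.12 to 0.029 for Bst2. It gave between 0 and 1 called genes in all, a member median between 0.031 and 0.40, between 20 and 30 members higher (58.5% to 65.2% of all genes), and between 11 and 24 members with groups that did not overlap (37.2% to 52.8% of all genes, against 25.3% on all 5 livers). Of these libraries, leaving out control 1, control 2 and knockout 1 moved a member median or count by over 1.5 times (16 members without overlap for knockout 1, where 40.5% of all genes had none). Mx1 had no value without control 2 or knockout 2, where its mean was below 1 FPKM. With the replicate block on the numbers in the labels, 5 genes were called, none of them among the 32, Cmpk2 was at 0.052 and Bst2 at 0.029. Knockout 3 has a number of its own and adds nothing to that fold change. Same-numbered livers deviated together (r = 0.23 and 0.20 across genes). The deviations of 2 controls from their mean are exact opposites, so these 2 correlations are not independent. Nor do 2 pairs with no stated litter or batch show that the numbers pair the animals. The cause of these changes was not tested. Unknown depth limits the low members, Mx1, Ifit2, Cmpk2, Rsad2 and Ifi44, most.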

Other observations

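Cxcl9, an interferon gamma-induced chemokine gene chosen after its values were seen, was, like Mx1 and Cmpk2, highest in control 2 and next in knockout 2, with 4.07, 9.81 and 4.61 FPKM in knockouts and 1.76 and 11.8 FPKM in controls. Its fold change was 0.18 (limma SE 0.65), but its mean FPKM was lower in knockouts (6.16) than in controls (6.79). Those of Mx1 and Cmpk2 were -0.25 (SE 0.33) and -0.11 (SE 0.36). Each of these fold changes was smaller in size than its SE, so their signs do not show a difference in direction. Cxcl10, a relative of Cxcl9, had 5.81, 5.41 and 5.34 FPKM in knockouts and 3.62 and 5.76 FPKM in controls. Control 1 was thus the lowest liver for both chemokines.

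The ratio of each immunoproteasome subunit to the constitutive subunit that it replaces was computed after the values were seen. Psmb9 over Psmb6 was 0.123, 0.157 and 0.128 in knockouts and 0.0847 and 0.1102 in controls. Psmb8 over Psmb5 was 0.519, 0.540 and 0.424 in knockouts and 0.351 and 0.411 in controls. Every knockout was above both controls for these 2 ratios, and no share over other gene pairs was computed. Psmb8 by itself had groups that overlapped. Psmb5 was lower in every knockout than in both controls, where 6.38% of all genes tested were, so the separation of that ratio rested in part on Psmb5. Psmb10 over Psmb7 was 0.273, 0.300 and 0.334 in knockouts and 0.335 and 0.282 in controls, groups that overlapped. No test is given, since an exact permutation of 3 against 2 livers cannot go below 0.1.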
